A study of Mus musculus with 24 samples.

Results

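The genes described here are the main enzymes that remove superoxide and peroxides in mouse liver, together with the 2 common metallothioneins. They were chosen by symbol, and each of the 10 (Sod1, Sod2, Sod3, Cat, Gpx1, Gpx3, Gpx4, Prdx6, Mt1 and Mt2) matched 1 of the 56205 gene rows deposited. Gene expression had been measured by RNA-Seq of polyadenylated RNA in whole liver of C57BL/6J mice, with 12 libraries from mice fed a methionine-choline deficient (MCD) diet for 20 weeks and 12 from mice on a control diet for the same time. Diets of this kind, short of methionine and choline, are used to produce steatohepatitis with fibrosis. The paper's methods give this diet a high fat content, its results speak of CDAHFD, an amino acid-defined diet without enough choline, and MCD is used below because the labels do. The treatment label of the controls reads control diet, although the deposited record also speaks of a chow diet. The study's methods list a control diet made for the MCD diet. The series gives 6 animals per diet and sex but no sex for a single library, and no age was found for these mice in the sources used here. No mutation, transgene or drug is named for either group. The 24 libraries were deposited as raw read counts per gene, with totals of 16793207 to 24915175 in control and 16388650 to 24577848 in MCD livers.

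Superoxide, a by-product of respiration and of oxidases, is turned into hydrogen peroxide by superoxide dismutases. Hydrogen peroxide is then broken down by catalase in peroxisomes and by glutathione peroxidases and peroxiredoxins elsewhere, and GPX4 acts on peroxides of membrane lipids. Metallothioneins are small cysteine-rich proteins that hold zinc and copper and can also react with oxidants. Their genes are known in liver for induction by zinc, glucocorticoids and inflammatory cytokines, and the zinc response runs through the factor MTF1, which binds metal response elements in their promoters.

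Mt2 and Mt1 lie next to each other on chromosome 8 of the mouse genome (GRCm38), both on the plus strand, with 5513 bases between the annotated genes (GENCODE M21; Mt2 at chr8:94172664-94173568 and Mt1 at chr8:94179082-94180327). Their promoters are shown because both genes moved with the diet and with each other in the data below. Each sequence runs from 250 bases before to 30 bases after the RefSeq transcript start (GRCm38.p6), at chr8:94178839-94179118 for Mt1 and chr8:94172368-94172647 for Mt2, and capitals mark matches to the core of a metal response element, searched as TGCACNC and TGCGCNC on both strands.
Mt1: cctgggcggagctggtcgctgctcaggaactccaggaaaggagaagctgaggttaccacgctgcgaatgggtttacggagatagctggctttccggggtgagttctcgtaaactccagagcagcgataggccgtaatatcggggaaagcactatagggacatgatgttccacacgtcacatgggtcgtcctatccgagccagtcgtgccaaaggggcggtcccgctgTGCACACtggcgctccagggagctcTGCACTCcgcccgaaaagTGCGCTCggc
Mt2: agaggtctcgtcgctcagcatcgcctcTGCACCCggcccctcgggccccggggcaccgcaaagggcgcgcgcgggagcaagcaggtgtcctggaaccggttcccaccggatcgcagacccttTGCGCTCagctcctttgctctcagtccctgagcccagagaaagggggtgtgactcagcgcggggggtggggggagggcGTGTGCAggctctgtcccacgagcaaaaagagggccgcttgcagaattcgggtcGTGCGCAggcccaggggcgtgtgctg

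The Mt1 window held 3 matches, all in the direction of transcription, and the Mt2 window held 4, of which the capitals GTGTGCA and GTGCGCA read on the opposite strand. Counted from the RefSeq start, with negative numbers before it, the Mt1 matches began at -23, 3 and 21. Those of Mt2 began at -223, -128, -50 and 5. None of these matches overlapped another. In the RefSeq table, 25.7% of all 32851 promoter windows of 300 bases held at least 1 match, 1.97% held at least 3 and 0.517% at least 4. Windows for the genes were present for 8 of the 10, Sod3 and Prdx6 having no entry, and none of the windows of Sod1, Sod2, Cat, Gpx1, Gpx3 and Gpx4 held a match. The core of an antioxidant response element, searched as TGACNNNGC on both strands, matched once in the Mt2 window and once in that of Sod1, compared with at least 1 match in 12.4% of all windows. These matches are letters in a sequence and were not tested for binding.

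All 10 genes passed the low-count filter, which kept 14109 genes. The threshold for a call was a log2 fold change above 0.5 in size together with a false discovery rate (FDR, Benjamini-Hochberg, over all 14109 genes) of at most 0.01 in edgeR's quasi-likelihood test. By that rule 3 of the 10 were higher in MCD livers (Gpx3, Mt1 and Mt2), where 19.2% of all genes tested were higher. Another 3 were lower (Sod1, Cat and Prdx6), where 19.1% of all genes were lower. The 6 called genes were 60.0% of the group, compared with 38.3% of all genes tested. The other 4 (Sod2, Sod3, Gpx1 and Gpx4) missed the threshold, although each of the 10 had an FDR of 0.05 or less, as did 63.5% of all genes with no limit on the fold. Every MCD library lay above every control library for Gpx3 (9.5% of all genes tested) and below every control library for Sod2 and Cat (4.88% of all genes tested).

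**Figure D1:**
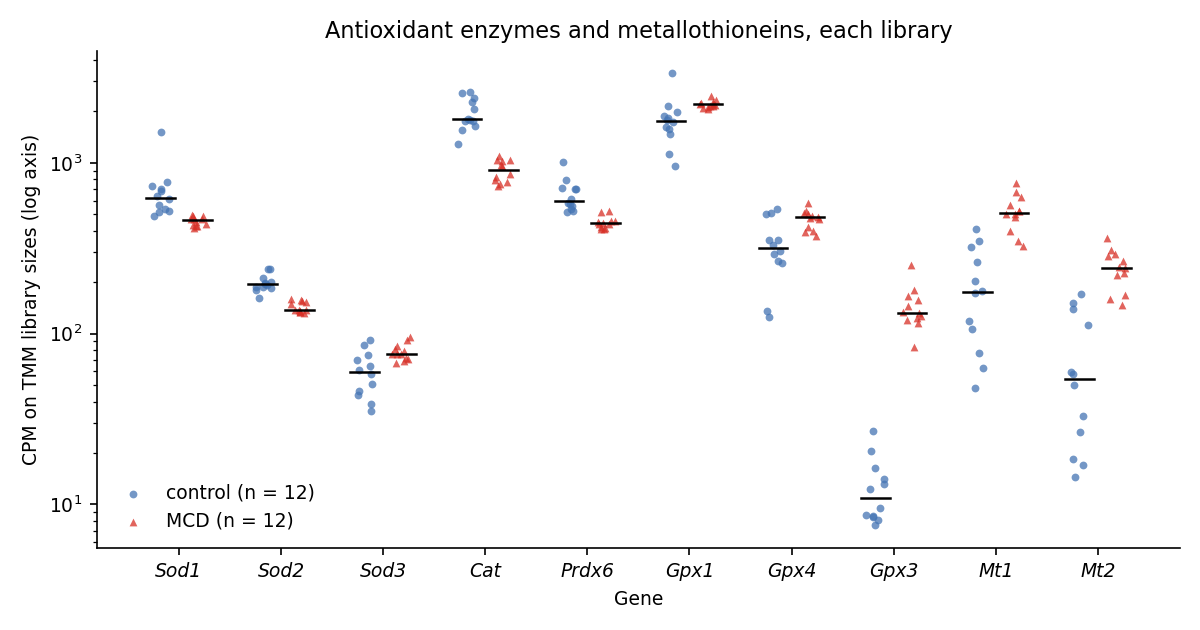
Level of each gene in CPM (read counts scaled to a common library size, log axis) in each of the 12 control and 12 MCD libraries, with a black line at each group's median. Gpx3 is separated between the diets by the widest gap, Cat and Sod2 sit lower in every MCD library, and the MCD points of most genes are packed more tightly than the control points.

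Several facts about the libraries touch these values. The factors that edgeR's TMM method used to scale the libraries ran from 0.642 to 0.973 in control and from 1.07 to 1.26 in MCD livers and did not overlap. With total counts alone as the scale, the median log2 fold change of all genes tested moved from -0.10 to 0.27, and 6 of the 10 genes were called higher and 1 lower. Of all 14109 genes tested, 4539 were called higher and 848 lower on that scale, compared with 2712 and 2688 with TMM factors. Control replicate 12 had the lowest factor (0.642, next 0.792), and in it genes with a longest transcript of at most 1000 bases had a median log2 CPM 0.92 above the other control libraries, while genes over 3000 bases differed by -0.36. In whole liver, fewer cells of a type and less RNA per cell cannot be told apart. Of the cells the labelled tissue should hold, the 5 hepatocyte markers (Alb, Apoa1, Ttr, Cps1 and Hnf4a) summed to 68639 to 162395 CPM in control and 50469 to 75232 CPM in MCD livers.

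Among the superoxide dismutases, Sod1 fell in MCD livers, while Sod2 and Sod3 missed the threshold. Sod1, which encodes the copper-zinc enzyme of the cytosol (chr16:90220754-90226329), ran from 485 CPM through a median of 624 to 1515 CPM in control livers and from 417 through 461 to 498 CPM in MCD livers. The groups overlapped, with 11 of 12 control livers above every MCD liver. The mean was 689 ± 276 CPM (SD, n = 12) in control and 456 ± 28.3 CPM (SD, n = 12) in MCD, and the log2 fold change of -0.59 (SE 0.137, 95% interval -0.88 to -0.31) passed the threshold with an edgeR FDR of 0.000505. The highest control value was that of replicate 12, and without that library the log2 fold change was -0.39 and no longer past the fold limit. On total counts it was -0.18 with an FDR of 0.0847.

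Sod2, the manganese enzyme of mitochondria (chr17:13006846-13040063), showed the most even levels of the group among control livers, from 162 through 194 to 240.4 CPM. MCD livers lay between 133 and 158 CPM with a median of 138 CPM, all of them below all control livers. The log2 fold change of -0.46 (SE 0.066, 95% interval -0.60 to -0.33) had an edgeR FDR of 9.77e-07 but stayed inside the fold limit. On total counts the value was -0.09 with an FDR of 0.145, and only 3 of 12 MCD livers then lay below every control.

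Sod3, whose product is secreted and binds the extracellular matrix (chr5:52363791-52371418), ran from 35.3 through 59.9 to 91.9 CPM in control and from 67.6 through 76.3 to 95.7 CPM in MCD livers. The groups overlapped, with 8 of 12 controls below every MCD liver and 2 MCD livers above every control. The log2 fold change was 0.38 (SE 0.129, 95% interval 0.12 to 0.65, edgeR FDR 0.0117), which missed both limits, and it was 0.74 and past the threshold on total counts.

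A ratio of 2 genes inside a library does not depend on library scaling. The log2 ratio of Sod3 to Sod1 counts was -3.51 ± 0.625 (SD, n = 12) in control and -2.55 ± 0.176 (SD, n = 12) in MCD livers, a difference of 0.96 (two-sided permutation test with 100000 resamples, adjusted p = 0.00021 over the 6 ratios tested). Secreted and cytosolic dismutase transcripts stood closer to each other in MCD livers, and 5 of 12 MCD livers exceeded every control. The ratio of Sod2 to Sod1 did not pass (-1.73 ± 0.328 and -1.67 ± 0.0992, SD, n = 12 each, difference 0.06, permutation test, adjusted p = 0.638), and its sign turned (-0.0195) without control replicate 12.

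Cat, the peroxisomal enzyme that splits hydrogen peroxide (chr2:103453849-103485160, minus strand), showed the largest fall of the group. Control livers ran from 1284 through 1796 to 2601 CPM, whereas MCD livers ran from 731 through 905 to 1089.9 CPM. No MCD liver reached the lowest control liver. The mean fell from 1956 ± 420.4 CPM (SD, n = 12) to 902 ± 128 CPM (SD, n = 12), a log2 fold change of -1.12 (SE 0.111, 95% interval -1.35 to -0.89, edgeR FDR 3.06e-09), or 0.461 of the control level. The fall passed the threshold with total counts as well (-0.76), where 6 of 12 MCD livers lay below every control.

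Oxidases that make hydrogen peroxide, most of them peroxisomal, were counted as a list beside Cat. Of 10 such genes tested, 6 were lower and 0 higher in MCD livers, with a median log2 fold change of -0.83 over the list and -0.10 over all genes tested. The 3 with the largest falls were Hao2, a hydroxyacid oxidase (-4.28, SE 0.746), Pipox, which oxidizes pipecolic acid and sarcosine (-1.34, SE 0.109), and Uox, urate oxidase (-1.03, SE 0.091). Hao2 was low, with 2 to 675 counts in control and 0 to 29 in MCD libraries. Its highest FDR among the alternative settings was 0.01003, just above the limit of 0.01.

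Several genes that build peroxisomes were lower too. Of 16 peroxins tested, 9 were lower and 0 higher, with a list median of -0.52. The largest falls included those of Pex26 (-0.98, SE 0.134) and Pex6 (-0.70, SE 0.125), which encode an anchor and an ATPase of the machinery that recycles the import receptor. On total counts Pex6 had a log2 value of -0.32, inside the fold limit.

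Among the glutathione peroxidases, Gpx3 stood apart. It encodes the secreted peroxidase of plasma, which is made mostly in kidney (chr11:54902453-54910377). Control livers held 7.55 through a median of 10.9 to 26.9 CPM, corresponding to 116 to 475 reads per library, and MCD livers held 83.2 through 133 to 251 CPM, corresponding to 2254 to 6900 reads. The lowest MCD liver was above the highest control liver. The mean rose from 12.9 ± 5.92 CPM (SD, n = 12) to 144 ± 42.1 CPM (SD, n = 12), a log2 fold change of 3.49 (SE 0.213, 95% interval 3.05 to 3.93, edgeR FDR 1.14e-12), or 11.2-fold. Leaving out any 1 library kept the value between 3.43 and 3.64.

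Gpx1, the cytosolic enzyme and the most abundant glutathione peroxidase of liver (chr9:108338903-108340343), ran from 956 through 1757 to 3340 CPM in control livers and from 2059 through 2197 to 2457 CPM in MCD livers. The highest control liver, replicate 12, was above every MCD liver, while 10 of 12 controls were below every MCD liver. The log2 fold change of 0.30 (SE 0.132, 95% interval 0.03 to 0.58, edgeR FDR 0.0463) missed the threshold. On total counts it was 0.71 and past the threshold, with all 12 MCD livers above all controls.

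Gpx4, which reduces lipid hydroperoxides in membranes (chr10:80047166-80056439), lay close to the threshold. Control livers ran from 125 through 316 to 534 CPM and MCD livers from 373 through 479 to 579 CPM, with 9 of 12 controls below every MCD liver and 1 MCD liver above every control. The log2 fold change was 0.50 (SE 0.180, 95% interval 0.13 to 0.87) with an edgeR FDR of 0.0172, above the limit of 0.01. Other settings put it past the threshold, namely a replicate block (0.61), a numeric covariate from sex-linked genes (0.56), a minimum of 10 counts (0.59), limma-voom (0.62), DESeq2 (0.56), and scaling by total counts (0.89), upper quartiles (0.65) or relative log expression (0.56). The same was so without control replicate 12 (0.62), control replicates 8 or 11 or MCD replicate 4 (each 0.57).

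Set against Gpx1 in the same library, Gpx3 rose, while the difference for Gpx4 did not pass the test. The log2 ratio of Gpx3 to Gpx1 was -7.17 ± 0.604 (SD, n = 12) in control and -3.98 ± 0.412 (SD, n = 12) in MCD livers, a difference of 3.18 in which all 12 MCD livers exceeded all controls (permutation test, adjusted p = 6e-05, the smallest that 100000 resamples can give after adjustment). The corresponding difference for Gpx4 to Gpx1 was 0.25 (permutation test, adjusted p = 0.0827), from -2.50 ± 0.416 (SD, n = 12) to -2.25 ± 0.172 (SD, n = 12). Without control replicate 8 or 11 it was 0.32 and 0.31 and passed (adjusted p 0.011 and 0.022, permutation test).

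**Figure D2:**
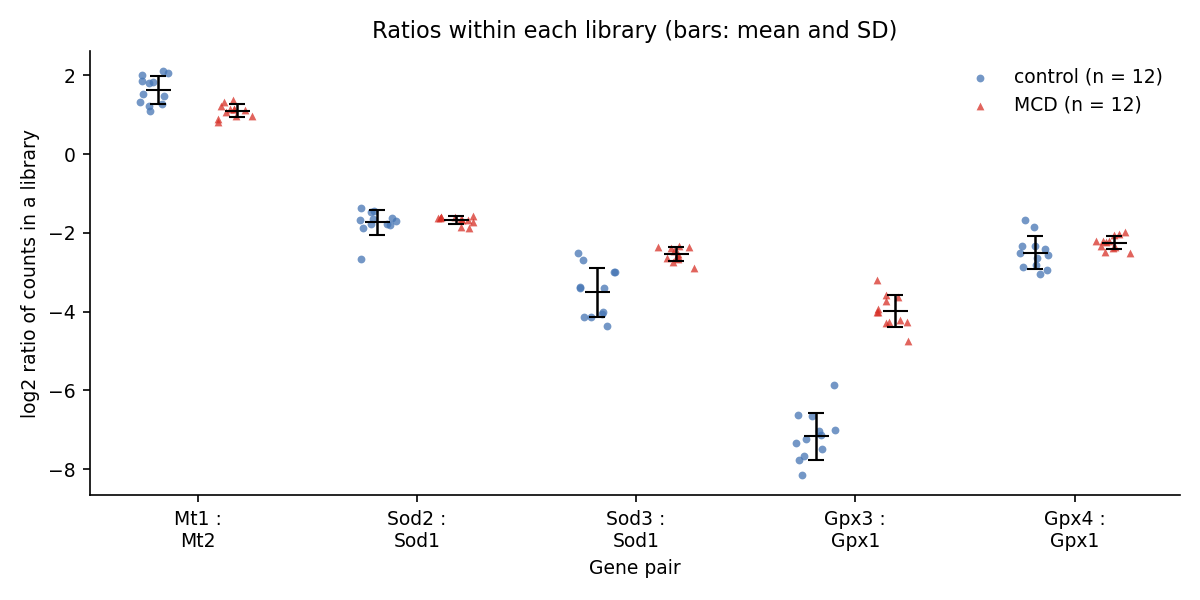
Log2 ratio of counts of gene pairs within each library, with control libraries as circles, MCD libraries as triangles, and bars for the mean and SD of 12 libraries. The Gpx3 to Gpx1 ratio moves by 3.18 without overlap, Sod3 to Sod1 by 0.96, and Mt1 to Mt2 moves down by a smaller amount.

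The glutathione peroxidases outside the group were mostly low in liver. Of the 4 tested, 3 rose and 0 fell. Gpx7 and Gpx8, which act in the endoplasmic reticulum, went from 2.17 ± 0.969 to 8.88 ± 0.994 CPM (SD, n = 12; log2 fold change 2.02, SE 0.184) and from 1.02 ± 0.486 to 2.53 ± 0.643 CPM (SD, n = 12; 1.30, SE 0.208). Gpx2, known from gut epithelium, had a median of 0.5 counts in control libraries and 29 counts in MCD libraries, with a fitted log2 fold change of 3.90 (SE 0.550) that rests on these low counts.

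Inside each diet Gpx3 varied together with Tcf21 and Vim. By the smaller of the correlations in control and in MCD livers (12 libraries each), the genes most alike to it were Tcf21, a transcription factor of mesenchymal cells (Pearson r 0.863 and 0.870), Vim, which encodes vimentin (0.828 and 0.854), and Dtx3 (0.849 and 0.823). These were picked as the highest among all genes tested and are a description. Tcf21 and Vim were themselves higher in MCD livers, with log2 fold changes of 2.45 and 2.51.

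Markers of several other cell types moved with the diet as well, where 19.2% of all genes tested were higher and 19.1% lower. Of 6 mesenchymal markers (Col1a1, Col3a1, Dcn, Lum, Pdgfrb and Reln) 5 were higher, and their summed level ran from 195 to 536 CPM in control and from 684 to 1185 CPM in MCD livers. All 6 markers of monocyte-derived macrophages were higher (20.2 to 78.5 CPM in control, 623 to 1321 CPM in MCD), as were all 5 cholangiocyte markers (4.23 to 17.2 CPM and 44.7 to 108 CPM) and the 3 neutrophil markers tested of 5 (2.42 to 7.18 CPM and 12.4 to 33.3 CPM). Of the 5 hepatocyte markers 2 were lower, as were 4 of 5 Kupffer cell markers (137 to 423 CPM and 81.3 to 297 CPM), 4 of 5 erythroid markers (339 to 1758 CPM and 180.0 to 455 CPM) and 3 of 5 endothelial markers (136 to 198 CPM and 95.9 to 137 CPM). All 5 proliferation markers and 3 of 6 lymphocyte markers were higher. Of 4 vascular smooth muscle markers 2 were tested, with 0 higher and 1 lower (8.07 to 24.3 CPM in control, 12.4 to 22.5 CPM in MCD). No marker in these lists was at 0 in all libraries, and their part in the values of Gpx3 and the other genes was not tested. Adipocyte markers reached 122 CPM in MCD replicate 4 and at most 10.8 CPM elsewhere, and Gpx3 in MCD replicate 4 was 133 CPM, with an MCD median of 133 CPM.

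Prdx6, a peroxiredoxin with a single active cysteine that also repairs oxidized phospholipids (chr1:161240112-161251219, minus strand), was lower in MCD livers by a margin close to the fold limit. Control livers ran from 515 through 600.2 to 1004 CPM and MCD livers from 410.5 through 442 to 522 CPM, with 10 of 12 MCD livers below every control. The log2 fold change of -0.54 (SE 0.096, 95% interval -0.73 to -0.34, edgeR FDR 2.61e-05) passed the threshold. Control replicate 12 was again the highest, and without it the value was -0.43 and inside the limit. The same held without control replicate 1 or without any 1 of MCD replicates 2, 3, 4, 6, 8, 10, 11 and 12, with values from -0.49 to -0.48, and on total counts the value was -0.15.

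The 5 peroxiredoxins with paired cysteines (Prdx1 to Prdx5) gave 0 calls in either direction, with a list median of 0.20. The thioredoxin and glutaredoxin genes that regenerate them gave calls in both directions. Of 11 tested, Srxn1, which repairs overoxidized peroxiredoxin (0.64, SE 0.132), and Txnip, an inhibitor of thioredoxin (0.54, SE 0.127), rose, while the thioredoxin reductases Txnrd3 (-0.74, SE 0.086) and Txnrd2 (-0.54, SE 0.085) fell. These 2 rises and 2 falls were near the shares of all genes tested, 19.2% higher and 19.1% lower. With DESeq2, relative log expression factors, upper-quartile factors or a minimum of 10 counts, only 1 gene of this list was lower. In glutathione supply, 1 of 4 genes rose (Gss, glutathione synthetase, 0.57, SE 0.110) and 1 fell (Gclc, the catalytic subunit of the rate-limiting ligase, -0.64, SE 0.113).

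The metallothioneins rose in MCD livers from control levels that differed widely between mice. Mt1 ran from 47.9 through 175 to 408 CPM in control and from 326 through 511 to 765 CPM in MCD livers. Mt2 ran from 14.5 through 53.9 to 170 CPM in control and from 147 through 244 to 362 CPM in MCD livers. For each gene 9 of 12 MCD livers lay above every control liver and 10 of 12 control livers lay below every MCD liver, so the groups overlapped through a few control livers with high levels. Replicates 4, 12 and 7 held the highest Mt1 values among the controls, and the highest Mt2 values as well.

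Mean Mt1 went from 192 ± 119 to 520.0 ± 129 CPM (SD, n = 12), a log2 fold change of 1.44 (SE 0.280, 95% interval 0.86 to 2.01, edgeR FDR 7.66e-05). Mean Mt2 went from 70.7 ± 56.9 to 244 ± 64.5 CPM (SD, n = 12), a log2 fold change of 1.79 (SE 0.354, 95% interval 1.06 to 2.51, edgeR FDR 9.17e-05). Both stayed past the threshold when any 1 library was left out (1.34 to 1.59 for Mt1 and 1.68 to 1.98 for Mt2). As a share of all counts, with no scaling, the 2 genes together took 0.00532% to 0.0553% in control and 0.0594% to 0.119% in MCD livers, and here the groups did not overlap.

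**Figure D3:**
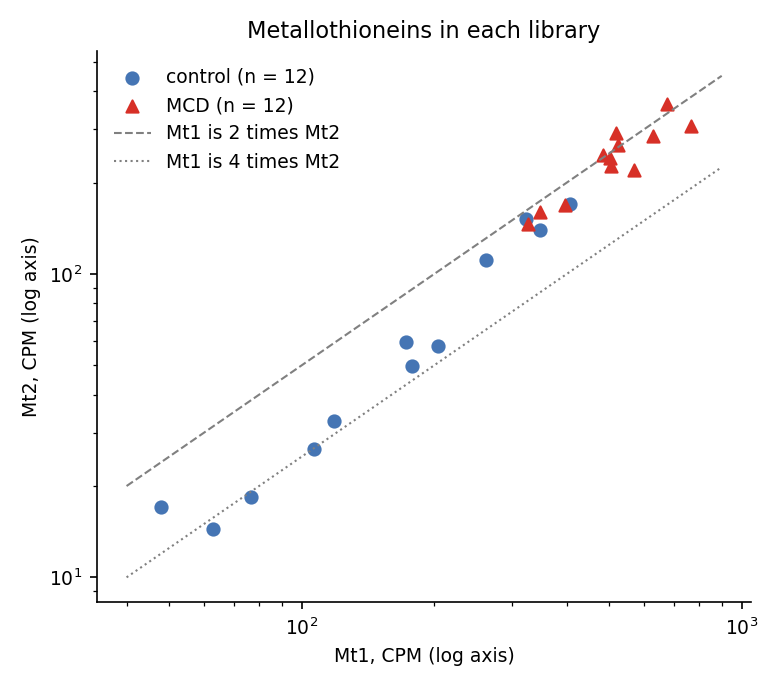
Mt2 against Mt1 in each library (CPM, both axes logarithmic), with guide lines where Mt1 is 2 or 4 times Mt2. Control libraries spread along the whole line, from 47.9 to 408 CPM of Mt1, and MCD libraries gather at its upper end near the line of 2 times.

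The 2 genes moved together inside each diet. Their log2 CPM correlated with Pearson r 0.980 and Spearman rho 0.965 over the 12 control livers (permutation tests, p adjusted over 90 relations 0.00045 and 0.0009) and with r 0.913 and rho 0.832 over the 12 MCD livers (permutation tests, adjusted p 0.0022 and 0.020). With the 2 libraries most distant from the Mt1 median left aside, r was 0.990 and 0.896. After both genes had been regressed on a sex-linked expression score within the diet, r was 0.970 and 0.923. The genes next most alike to Mt1 were Itih1, a plasma hyaluronan-binding protein of hepatocytes (r 0.798 in control and 0.867 in MCD), and Clec4f, a Kupffer cell lectin (0.742 and 0.817), although both were lower in MCD livers (log2 fold changes -0.52 and -1.11).

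Mt2 rose by more than Mt1. The log2 ratio of Mt1 to Mt2 counts was 1.64 ± 0.357 (SD, n = 12) in control and 1.10 ± 0.163 (SD, n = 12) in MCD livers, which is 3.11 and 2.14 reads of Mt1 for each read of Mt2. The difference of -0.53 passed the permutation test (adjusted p = 0.0003), with 5 of 12 MCD livers below every control. Control replicates 4, 7 and 12, with the highest Mt1 among controls, had log2 ratios of 1.27, 1.09 and 1.32, inside the MCD range of 0.83 to 1.37. Exons of Mt2 overlap the gene Gm45774 on the opposite strand, and since the strand setting of the counting is not stated for these libraries, reads of the 2 cannot be told apart with certainty. Gm45774 held 3494 counts over all libraries and itself rose by 1.42 on the log2 scale (SE 0.390).

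Other relations inside a diet were weaker. Of 45 pairs in each diet, 10 passed an adjusted p of 0.05 in control and 3 in MCD livers, and over both diets 9 were positive and 4 negative. In control livers Cat was lower where Mt1 was higher (Pearson r -0.855 and Spearman rho -0.895, permutation tests, adjusted p 0.0061 and 0.012). The controls at either end were replicate 10, with 47.9 CPM of Mt1 and 2579 CPM of Cat, and replicate 4, with 408 CPM of Mt1 and 1284 CPM of Cat. After regression on the sex-linked score r was -0.761 (adjusted p = 0.027, permutation test), and with the 2 livers most distant from the Cat median left aside it was -0.769 (adjusted p = 0.10, permutation test). In MCD livers r of the same pair was 0.507 and rho 0.483, of the opposite sign, and did not pass (adjusted p 0.387 and 0.434, permutation tests), and the difference between the diets was not tested. Of the 13 relations, 8 passed on total counts and 2 with the 2 most distant libraries left aside, both of these being Mt1 with Mt2. The other 11 kept their sign over the 10 libraries left, with r between 0.476 and 0.852 in size, compared with 0.724 to 0.925 over all 12. Sod2 with Sod3 in control livers passed only with those libraries left aside (r -0.875, compared with -0.441 over all 12). On total counts Sod1 with Sod2 in control livers changed sign (r -0.342, compared with 0.782 on the TMM scale). Sod2 with Prdx6 in control livers had r 0.132 on total counts, compared with 0.902.

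Zinc-handling genes were counted beside the metallothioneins. Of 8 tested, 6 were lower and 1 higher, with a list median of -0.68. Mtf1, the zinc sensor that drives metallothionein transcription, was lower by 0.58 on the log2 scale in MCD livers (20.2 ± 2.22 and 13.5 ± 1.60 CPM, SD, n = 12, SE 0.074). The zinc exporter Slc30a1, another MTF1 target, was lower as well (-0.53, SE 0.080). These 2 genes were named after their values were seen, and on total counts they had -0.23 and -0.18 and missed the threshold. The 3 largest falls were those of Slc30a10, a manganese exporter (-3.02, SE 0.189, from 24.2 ± 7.21 to 2.97 ± 1.01 CPM, SD, n = 12), Slc39a5 (-1.43, SE 0.381) and Slc39a8 (-0.91, SE 0.089), both importers of divalent metals. The 1 gene that rose was the zinc importer Slc39a4, from 39.6 ± 21.4 to 94.8 ± 17.1 CPM (SD, n = 12; 1.26, SE 0.269). Copper delivery, on which SOD1 depends, gave 2 lower and 0 higher of 8, namely the exporter Atp7b (-0.90, SE 0.149) and the importer Slc31a1 (-0.62, SE 0.069). The copper chaperone of SOD1, Ccs, was 177 ± 79.5 CPM in control and 145 ± 8.05 CPM in MCD livers (SD, n = 12) and missed the threshold.

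Genes that share inducers with the metallothioneins were mixed. Of 8 glucocorticoid-responsive genes 2 rose, Sgk1, a kinase (1.04, SE 0.165), and Nfkbia, an inhibitor of NF-κB (0.67, SE 0.099), and 0 fell, with a list median of 0.29. Among all genes tested, 19.2% were higher and 19.1% lower. Of 12 acute phase genes 6 rose and 2 fell, with a median of 0.55. The largest rises were those of Lcn2, an iron-siderophore binding protein (3.82, SE 0.348), Orm2, an acid glycoprotein (3.70, SE 0.380), and Saa3, a serum amyloid (3.24, SE 0.331), and the falls were those of Itih4 (-0.75, SE 0.153) and Fgb, a fibrinogen chain (-0.71, SE 0.155).

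Glutathione peroxidases 1, 3 and 4 contain selenocysteine, so genes of selenoprotein synthesis were listed too. Of 18 genes of this machinery and of other selenoproteins, 6 fell and 3 rose, with a list median of -0.32. The largest falls were those of Sepsecs (-0.90, SE 0.124), which makes selenocysteine on its tRNA, Selenoi (-0.82, SE 0.099), an ethanolamine phospholipid enzyme, and Scly (-0.68, SE 0.086), which frees selenium from selenocysteine. The rises were those of Selenom (2.01, SE 0.217), Selenon (1.38, SE 0.160) and Selenow (0.52, SE 0.134). Among 6 genes of lipid peroxide defence and remodelling, which act beside Gpx4, Slc7a11, the cystine importer, rose from 0 to 7 counts per control library to 33 to 102 counts per MCD library (fitted log2 fold change 4.55, SE 0.359), and Lpcat3, which places polyunsaturated chains in phospholipids, fell (-0.56, SE 0.078).

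Over the 12 lists, 19 of 110 genes tested were higher and 35 lower, which is 49.1% called compared with 38.3% of all genes. By direction, 19.2% of all genes tested were higher and 19.1% lower, and these shares apply to each list above. With total counts as the scale the same lists gave 34 higher and 9 lower, so the balance of directions across the lists depended on scaling. The balance over all 14109 genes tested moved likewise, from 2712 higher and 2688 lower to 4539 and 848 on total counts. On that scale the oxidases gave 4 lower and 0 higher, the peroxins 1 lower and 0 higher, the zinc list 2 of each (Slc30a10 and Slc39a8 lower), copper delivery 1 lower (Atp7b) and 2 higher, the selenoprotein list 1 lower (Sepsecs) and 5 higher, and the peroxiredoxins with paired cysteines 3 higher. Of the named falls, those of Slc39a5, Slc31a1, Txnrd2, Txnrd3, Gclc, Scly, Selenoi, Lpcat3, Itih4 and Fgb also missed the threshold there, with the same sign.

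**Figure D4:**
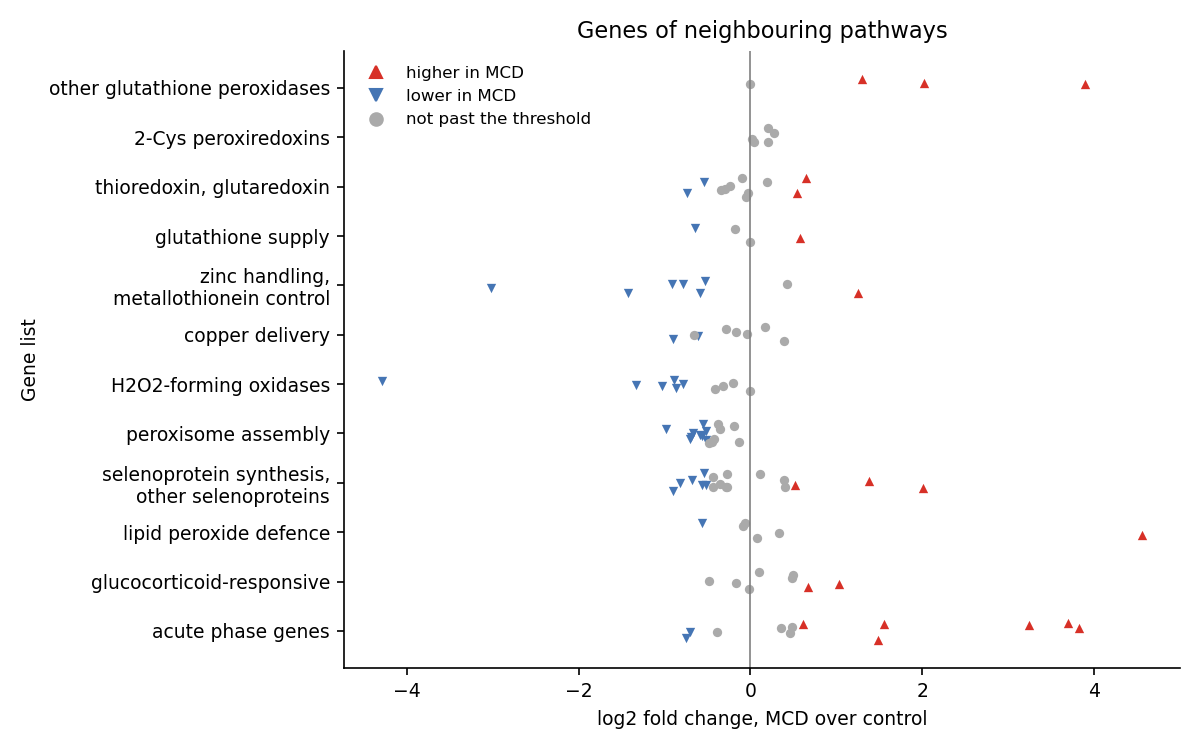
Log2 fold change (MCD over control) of each tested gene in 12 lists of neighbouring pathways, with triangles for genes past the threshold and grey circles for the rest. On the TMM scale shown, the oxidase and peroxisome lists hold no gene that rose, and the zinc list holds 6 falls and 1 rise.

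Levels of different genes were compared per length, as CPM divided by the length of the longest annotated transcript in kilobases (RPKM), and part of the order depended on which length was used. Gpx1 ranked first in both diets, at 1667 ± 556 RPKM in control and 2058 ± 105 RPKM in MCD livers (SD, n = 12). By the longest transcript, it was followed in control livers by Cat (748 ± 161 RPKM) and Gpx4 (332 ± 134 RPKM), each order holding in 12 of 12 livers, whereas the neighbours Gpx4 and Prdx6 kept their order in 8 of 12 and Sod1 and Mt1, the next neighbours but one, followed the order of their means in only 5 of 12. By the same length, in MCD livers Mt1 (479 ± 119 RPKM) and Mt2 (477 ± 126 RPKM) came next after Gpx1 together with Gpx4 (469.7 ± 60.7 RPKM), and the order among these 3 held in only 6 or 7 of 12 livers. Cat ranked after these at 345 ± 49.1 RPKM. Gpx3 was last in control at 8.07 ± 3.71 RPKM and rose above Sod2 and Sod3 to 90.5 ± 26.4 RPKM in MCD. Of these places, the first of Gpx1 in both diets, the one next to it of Mt1 in MCD, the last of Gpx3 in control and that of Gpx3 above Sod2 and Sod3 in MCD held with the principal transcript and with all exons as the length.

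Several other places changed with the length. The longest annotated form of Sod1 has 3970 bases and its principal form 641, which gave 174 ± 69.5 and 1075 ± 431 RPKM in control livers (SD, n = 12) and put Sod1 above Cat with the latter. With the principal transcript Mt1 was 350.3 ± 218 RPKM in control livers, beside Gpx4 at 344 ± 139 RPKM (SD, n = 12), and the order of these 2 followed their means in 6 of 12 livers. In MCD livers Mt1 was then 947 ± 235 RPKM, Sod1 712 ± 44.1 RPKM, Gpx4 487 ± 63.0 RPKM and Mt2 477 ± 126 RPKM (SD, n = 12). With all exons as the length Gpx4 was 271 ± 35.1 RPKM in MCD livers (SD, n = 12), below Cat at 345 ± 49.1 RPKM.

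Differences between mice of the same diet were smaller in MCD livers for all 10 genes. The SD of log2 CPM over 12 libraries was 1.01 in control and 0.37 in MCD livers for Mt1, 1.28 and 0.40 for Mt2, 0.67 and 0.19 for Gpx4, and 0.45 and 0.07 for Gpx1. Among all genes tested 90.8% also had the smaller SD in MCD livers, with medians of 0.39 and 0.21. Within control livers the SD of Mt2 exceeded that of 98.0% of all genes, that of Mt1 exceeded 95.7%, and that of Sod2 exceeded only 3.67%.

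**Figure D5:**
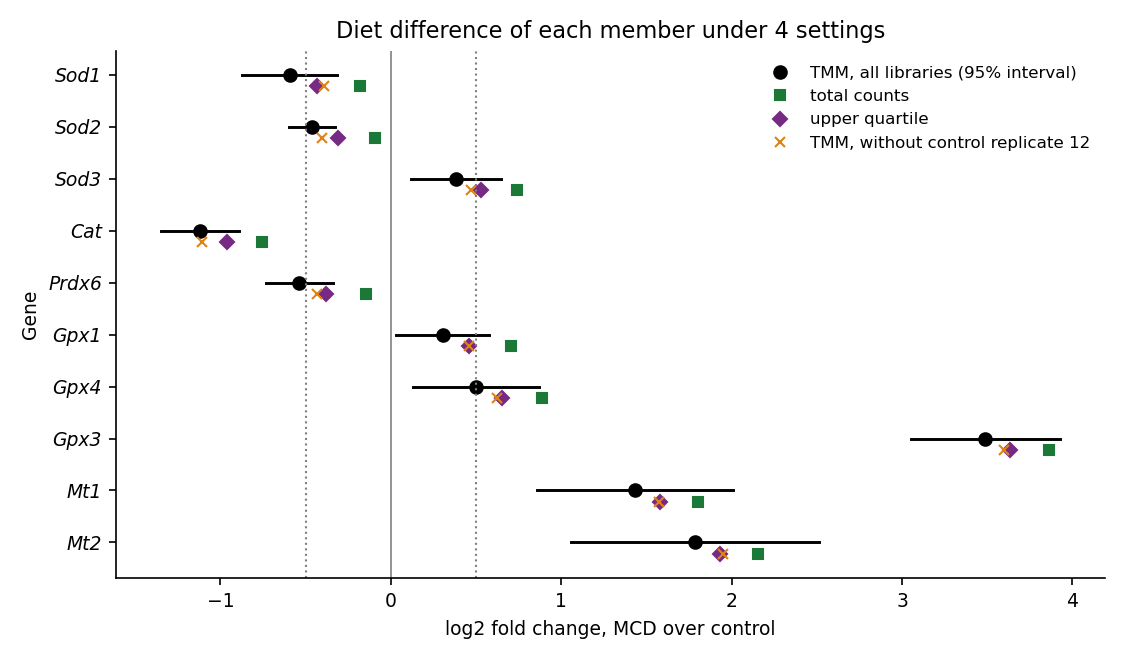
Log2 fold change (MCD over control) of each gene with its 95% interval (black), beside the values with total counts, with upper-quartile scaling and without control replicate 12, and dotted lines at the fold limit of 0.5 in size. Gpx3, Mt1, Mt2 and Cat stay outside the limit in all 4 settings, while Sod1 and Prdx6 move inside it in the other 3.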

How the data were processed

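Whole-liver poly(A) RNA of 24 mice, 12 per diet, had been sequenced. The authors deposited raw read counts per Ensembl gene, 1 column per library, with no normalization and no low-count filter (28652 of 56205 rows were 0 throughout), and 0 columns were left unused. The submitters' processing notes name mm10, bcl2fastq and STAR 2.7.3a. The study's methods describe a stranded TruSeq mRNA kit, and for reads aligned to the human genome they name an exon quantification pipeline with STAR, PISCES for quantification and an Ensembl reference. Which of these steps, with which strand setting and annotation release, made the mouse counts is not given in the sources used here. Of the rows, 4460 are absent from GENCODE M21, which supplied symbols, positions and lengths (the absent rows hold 0.0808% of counts). Promoters came from RefSeq (GRCm38.p6).

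Groups were taken from the diet labels. Nothing states that libraries of a diet were run in separate batches, and the spread between libraries is the error of every test. No pair of libraries was identical (lowest dispersion index 11.4, where sampling noise gives 1). Counts were filtered with edgeR's filterByExpr, scaled with TMM factors and tested with glmQLFTest (edgeR 4.0.16, R 4.3.3), MCD against control with no covariate. SEs are the absolute log2 fold change over the square root of F. The limits of the call are those the study states for human liver. CPM values use TMM-scaled library sizes. Log2 CPM used a prior count of 2 and ratios a prior count of 0.5. Permutation tests were two-sided with 100000 resamples (scipy 1.17.1, numpy 2.4.6), and figures were drawn with matplotlib 3.10.9. Tested on simulated counts of 14109 genes for this comparison, with 200 genes changed, edgeR recovered 191 and called 2 unchanged genes, limma-voom recovered 190 and called 0, and DESeq2 recovered 193 and called 3. Rises and falls were equal in number there, each gene had 1 dispersion for both diets, and fewer genes changed than the 5400 called here. The simulation therefore did not test scaling under a broad shift in expression or the smaller spread of MCD livers.

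The genes and lists were chosen with earlier results of these data known, so list counts are descriptions. Of each list the text names the called genes with the 3 largest rises and 3 largest falls, and others only where said. Gpx5, Mt3, Mt4, Dao and Lrp8 did not pass the filter. Copies named after the 10 genes held few reads (Gpx4-ps2 106, Prdx6b 3). Alternatives were other scalings (relative log expression, upper quartile, total counts), other filters, DESeq2 1.42.0, limma-voom (limma 3.58.1), a replicate block, a sex-linked score (log2 CPM of Xist minus the mean of Ddx3y, Eif2s3y, Kdm5d and Uty, used as a number), other thresholds and leaving out each library. Transcript lengths other than the longest, Spearman correlation and the ratios without control replicate 12 were added after the data were seen. One of the 6 ratios and 2 genes of the lists are counted in the totals but not reported here.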

Additional observations from a re-analysis of the deposited data

How the results depend on the processing

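Gpx3, Mt1, Mt2 and Cat kept their direction and stayed past the threshold under every alternative, all 24 libraries left out in turn included. Over the 10 genes, 85 of 110 values from the other alternatives and 225 of 240 from leaving out a library stayed on the same side of the threshold, and 0 changed sign. Genes higher numbered 6 with an FDR of 0.05 and no fold limit, 6 on total counts and 5 with upper-quartile factors. Of all 14109 genes tested, 3742, 4539 and 3261 were higher in these settings, in the same order. Genes lower numbered 1 on total counts, 1 with upper-quartile factors, 1 with a log2 limit of 1, and 1 to 3 when a library was left out (1 without control replicate 12). Of all 14109 genes, 848, 1710 and 686 were lower in the first 3 of these settings. For the pathway lists, total counts gave 34 higher and 9 lower, upper-quartile factors 21 lower, and the log2 limit of 1 gave 5 lower. An FDR of 0.05 gave 54 lower, where 5221 of all genes tested were lower.

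Sod1 (-0.59) and Prdx6 (-0.54) did not reach a log2 limit of 1. With total counts Sod1 was -0.18, Prdx6 -0.15, Sod3 0.74, Gpx1 0.71 and Gpx4 0.89, and with upper-quartile factors Sod1 was -0.43, Prdx6 -0.38, Sod3 0.53 and Gpx4 0.65, each of them changing side. With an FDR of 0.05 and no fold limit Sod2 (-0.46), Sod3 (0.38), Gpx1 (0.30) and Gpx4 (0.50) passed. Prdx6 missed the limit with relative log expression factors (-0.48), DESeq2 (-0.48), no filter (-0.49) and a minimum of 10 counts (-0.45), while Gpx4 passed with relative log expression factors (0.56), DESeq2 (0.56), limma-voom (0.62), the minimum of 10 counts (0.59) and the sex-linked score (0.56). The scaling factors, which do not overlap between diets, differ among these scalings by construction. For the other changes the cause was not tested. Leaving out 1 library gave -0.63 to -0.39 for Sod1, 0.42 to 0.62 for Gpx4, -0.57 to -0.43 for Prdx6, -0.0195 to 0.0971 for the Sod2 to Sod1 ratio (reversed without control replicate 12) and 0.20 to 0.32 for Gpx4 to Gpx1. Relations passing fell from 13 to 8 on total counts and 3 without the 2 farthest libraries, of which 2 were among the 13.

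Same-numbered libraries of the diets had r above 0.1 in 8 of 12 pairs (-0.28 to 0.35, median 0.23, and -0.06 between other numbers). The labels state no pairing and not every pair passed 0.1, so the numbers were not taken as pairs. With a replicate block Gpx4 was 0.61 and past the threshold, and the other 9 genes and the 6 ratios stayed on the same side. Depth limits Gpx2, Slc7a11 and Hao2, where a group held few counts per library.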
